A study of Rana omeimontis with 6 samples.

Results

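The subject is the set of liver transcripts whose protein descriptions name phospholipid or sphingolipid metabolism in tadpoles of the frog Rana omeimontis. Members were taken by words in the first protein description of each transcript cluster, here called a feature: phosphatidylcholine, phosphatidylethanolamine, phosphatidylserine, phospholipase, lysophosphat, choline, ethanolamine, ceramide or sphingo, without acetylcholine, cholinesterase, patatin or receptor. Of the 121726 features in the matrix 225 matched, and 89 of these reached the detection floor of 1 FPKM in at least 3 of the 6 libraries. FPKM is a count of sequenced fragments divided by transcript length and by the mapped total of the library. The 89 features carried 58 protein names, assigned to 55 genes, and 76 of them were described from a Xenopus protein. The name search takes in some proteins that act outside lipid metabolism, such as phosphatidylethanolamine binding protein 1.

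The study compared 3 liver libraries from tadpoles after ontogenetic fat accumulation with 3 from tadpoles before it, all collected in a nature reserve, with no treatment named. Its title asks how fat stored in the liver relates to body growth and lipid-based energy use. The labels give no age, developmental stage number or sex, and do not say whether a library is 1 animal or a pool, so p-values reflect no more than the spread among these libraries, part of which may be technical. Summed FPKM per library lay between 1358665 and 1442121, and the sources used here do not give read totals. Hepatocyte markers were present, with 9 of 12 matched, and their summed level was 11993 to 13468 FPKM after and 7768 to 9269 FPKM before fat accumulation. Pancreas digestive enzyme markers, with 15 of 16 matched, held 26.5 to 34.2% of all FPKM after and 22.5 to 34.9% before, so the samples labelled liver carried much pancreatic RNA at both stages. In such bulk samples fewer cells of a type and less RNA per cell cannot be told apart.

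Phosphatidylcholine and phosphatidylethanolamine are the main phospholipids of cell membranes and of the surface of lipid droplets and lipoproteins. The liver makes phosphatidylcholine from choline through phosphocholine and CDP-choline, in the Kennedy pathway, and also by methylating phosphatidylethanolamine. Phosphatidylethanolamine comes from ethanolamine by a parallel route or from phosphatidylserine by decarboxylation in mitochondria. Phospholipases and acyltransferases then trim and replace the acyl chains, while sphingolipids are built on ceramide and broken down through sphingosine.

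Members that build phospholipid head groups gave 6 of the 9 calls. Of the 89 members, 9 features of 6 genes were higher after fat accumulation and 0 were lower, at an adjusted p under 0.05 in limma on log2(FPKM + 1) with Benjamini-Hochberg adjustment over 40548 features. Over all features tested 4.64% were called higher and 4.0% lower, 8.64% in all. Among the 14725 tested features with a protein description 6.31% were higher and 3.38% lower, 9.69% in all. The members' share of 10.1% called was thus near the background. Of the 89, 4 met the detection floor through the after libraries alone and had to differ, and 2 of these, PEBP4 feature 2 and ABHD3 feature 2, are among the 9 calls. The other 7 calls were among the 84 members that reached 1 FPKM in at least 1 library of each stage. At an unadjusted p under 0.05 in limma, 24 members were higher and 10 lower. Over all features tested 10788 of 40548 had such a p, in either direction. The unadjusted counts by role given below are to be read beside that share. The median log2 fold change, on the log2(FPKM + 1) scale and after minus before, was 0.25 over the members, against -0.08 over all features tested and -0.02 over those with a description.

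The 6 genes with a call were PMT, PCYT1A, PTDSS2 and PISD, which make head groups, the phospholipase ABHD3, and PEBP4, a phosphatidylethanolamine-binding protein. In 27 members every after library lay above every before library, in 10 every after library lay below, and in 52 the stages overlapped. That left 41.6% of members with no overlap, against 32.5% of all features tested, 15.7% above and 16.8% below, and against 38.9% of the described features. The 27 include the 4 members that met the floor through the after libraries alone. The 10 include PNPLA8, which met it through the before libraries alone. For these members the lack of overlap was fixed by the floor. The shares over all features include such features too, and their number was not computed. Counting only the most abundant feature of each gene, 5 of 55 (9.09%) were higher. The shares called higher were 4.64% of all features tested and 6.31% of the described features. Those shares count every feature of a gene, so they are not of the same kind.

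**Figure D1:**
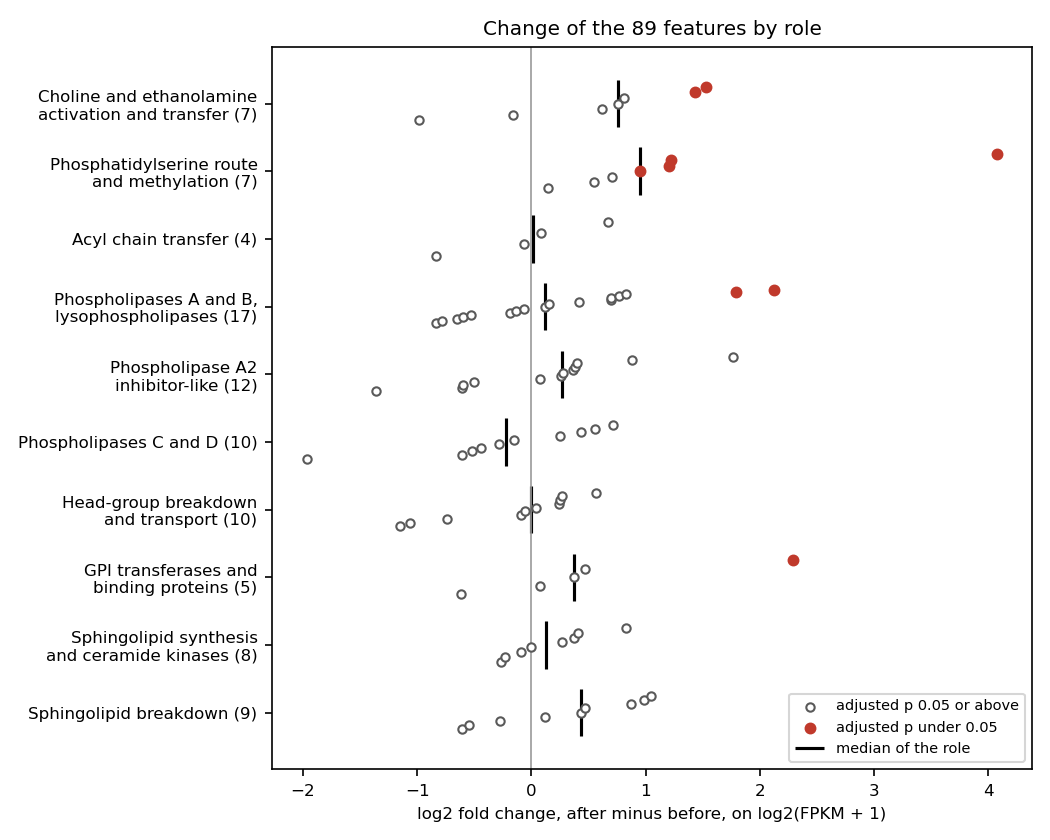
Log2 fold change (after minus before, on log2(FPKM + 1)) of each of the 89 features, grouped by role, with filled points for an adjusted p under 0.05 and a bar at the median of each role. The filled points lie mainly in the upper roles, choline and ethanolamine activation and the phosphatidylserine route with methylation, whose medians are 0.76 and 0.95.

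The strongest change was in PMT, phosphoethanolamine methyltransferase. This enzyme is known from plants and nematodes, where it methylates phosphoethanolamine to phosphocholine and so supplies choline head groups without dietary choline. The feature, described from Xenopus tropicalis, had 67.28, 38.63 and 63.46 FPKM in the after libraries, against 2.66, 1.25 and 3.39 FPKM in the before libraries. Its lowest after value was far above its highest before value. The mean was 56.5 ± 15.6 FPKM after and 2.43 ± 1.09 FPKM before (SD, n = 3 each), 23.2 times higher, and the log2 fold change was 4.08 ± 0.340 (SE; limma adjusted p = 0.0038). It stayed past the threshold whichever library was left out, with adjusted p of at most 0.0242.

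PCYT1A makes CDP-choline from phosphocholine and is the rate-limiting enzyme of the Kennedy pathway. Its more abundant feature had 20.88, 23.15 and 24.82 FPKM after and 7.21, 6.33 and 8.38 FPKM before. The other feature had 6.36, 11.40 and 9.43 FPKM after and 2.67, 1.82 and 3.71 FPKM before. In both features every after library was above every before library. The log2 fold changes were 1.53 ± 0.197 (SE; limma adjusted p = 0.0106) and 1.43 ± 0.307 (adjusted p = 0.0385). The first lost its call without after replicate 2 (adjusted p = 0.0521) or after replicate 3 (0.0553), and the second kept its call only without after replicate 1.

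The other members of the Kennedy pathway moved less or in different directions. Choline kinase and ethanolamine kinase add the first phosphate, and CHPT1 joins CDP-choline to diacylglycerol. Choline kinase alpha, CHKA, had 0.68, 1.0 and 0.68 FPKM after and 2.02, 4.13 and 1.80 FPKM before, a log2 fold change of -0.98 (limma adjusted p = 0.103). Choline kinase beta, CHKB, had 1.91, 2.65 and 1.82 FPKM after and 0.61, 0.88 and 0.83 FPKM before, a log2 fold change of 0.81 (adjusted p = 0.0914). CHKB was under 1 FPKM in every before library and so met the floor through the after libraries alone. Neither kinase passed the threshold. In CHKA the stages did not overlap. In CHKB the lack of overlap and the positive sign followed from how it met the floor, so the opposite signs of the kinases carry little weight. Ethanolamine kinase ETNK1, the most abundant of these features, averaged 76.7 ± 10.6 FPKM after and 50.5 ± 12.6 FPKM before, without overlap (SD, n = 3 each; adjusted p = 0.156). The more abundant CHPT1 feature overlapped between the stages (log2 fold change -0.16, adjusted p = 0.716), and the other had every after library above every before library (0.76, adjusted p = 0.104).

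A synthase and the decarboxylase of the phosphatidylserine route were both higher after fat accumulation. PTDSS2, phosphatidylserine synthase 2, exchanges the head group of phosphatidylethanolamine for serine. It had 15.34, 14.41 and 9.06 FPKM after and 5.05, 4.30 and 5.48 FPKM before, without overlap. Its log2 fold change was 1.2 ± 0.258 (SE; limma adjusted p = 0.0385), and it lost the call when any 1 library was left out, at adjusted p of 0.0577 to 0.126. PTDSS1, the related synthase that uses phosphatidylcholine, had 2.34, 3.32 and 2.90 FPKM after and 0.90, 1.45 and 1.80 FPKM before, also without overlap, but did not pass (log2 fold change 0.70, adjusted p = 0.150).

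PISD, the mitochondrial decarboxylase that turns phosphatidylserine into phosphatidylethanolamine, had 3 features. The most abundant had 17.42, 15.60 and 15.15 FPKM after and 6.6, 7.68 and 9.38 FPKM before. The next had 4.65, 7.02 and 4.52 FPKM after and 1.16, 1.69 and 2.38 FPKM before. Neither overlapped between the stages, with log2 fold changes of 0.95 ± 0.207 (SE; limma adjusted p = 0.0398) and 1.22 ± 0.286 (adjusted p = 0.0478). The first kept its call only without before replicate 3, and the second lost it without any 1 of the 6 libraries. The least abundant feature, at 0.44, 1.36 and 2.40 FPKM after and 0.54, 0.87 and 1.97 FPKM before, overlapped (0.14, adjusted p = 0.859).

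PEMT, the liver enzyme that methylates phosphatidylethanolamine to phosphatidylcholine, did not pass the test. It had 1.53, 2.58 and 4.94 FPKM after and 1.61, 1.33 and 1.83 FPKM before. After replicate 1 lay within the range of the before libraries, and the log2 fold change was 0.55 ± 0.356 (SE; limma adjusted p = 0.385).

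**Figure D2:**
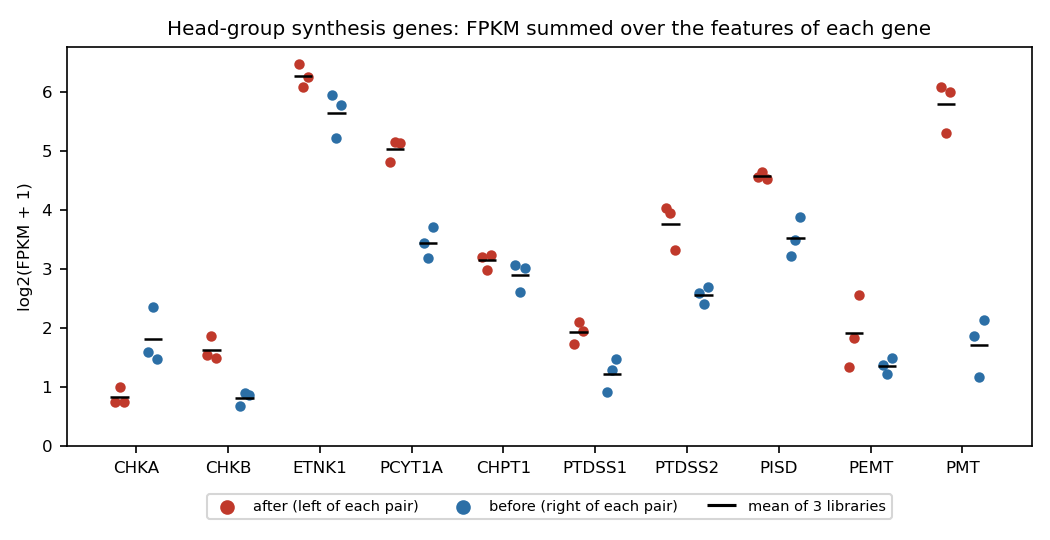
Log2(FPKM + 1) of the 10 head-group synthesis genes in each library, summed over the features of each gene, with after libraries left and before libraries right in each pair and a bar at the mean of 3. PMT shows the widest gap between stages. PCYT1A, PTDSS2, PISD, CHKB, ETNK1 and PTDSS1 also lie higher in every after library, which for CHKB followed from the detection floor. CHKA is the gene whose after libraries all lie below its before libraries, and CHPT1 and PEMT overlap.

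Together the 7 Kennedy pathway features and the 7 features of the phosphatidylserine route and methylation held 6 of the 9 calls. In 10 of these 14 every after library was above every before library, and in 1, CHKA, every after library was below. CHKB is among the 10, and its place there followed from meeting the floor through the after libraries alone. Over all features tested the shares were 15.7% above and 16.8% below. The median log2 fold change of the 14 was 0.79, and their FPKM summed to 218 ± 20.5 after and 91.7 ± 15.9 before (SD, n = 3 each). Much of the difference in this sum came from PMT, at a mean of 56.5 FPKM after and 2.43 FPKM before. ETNK1, which was not called, held 76.7 FPKM after and 50.5 FPKM before. Of the 75 members outside these roles, 3 (4.0%) were called higher, and the median of the 75 was 0.12. The share was 4.64% of all features tested and 6.31% of the described features. Among the 3 calls, PEBP4 feature 2 and ABHD3 feature 2 met the floor through the after libraries alone. The roles were set with earlier results of these data known, so the contrast between them is a description. Several genes of the same routes were below the detection floor and were not tested, among them PCYT2, the ethanolamine counterpart of PCYT1A, whose features stayed under 1 FPKM in every library. The summed hepatocyte markers were also higher in all 3 after libraries, with albumin and transthyretin the 2 of 9 that passed the test. Transferrin (log2 fold change -0.30) and prothrombin (-0.10) had negative signs and overlapped between the stages. APOA1, FGA, APOB and CPS1 had positive signs but overlapped, and FGG was higher in every after library without passing. Summed erythroid markers were also higher in every after library, at 0.874 to 0.908% of all FPKM after and 0.546 to 0.713% before. Of the 3 erythroid markers tested 0 passed. The alpha globin and ALAS2 features overlapped between the stages, and band 3 was higher in every after library. A beta globin feature under the floor went the other way, at 0 FPKM in every after library. Of the 5 gut markers tested, sucrase-isomaltase was higher (116 ± 35.9 FPKM after and 20.4 ± 11.1 FPKM before, SD, n = 3 each; limma adjusted p = 0.0170) and villin-1 lower (8.62 ± 3.29 FPKM after and 24.7 ± 4.02 FPKM before; adjusted p = 0.0304). The part of these other RNAs in the results was not tested. The 9 calls remained when each library was rescaled to its FPKM without the digestive markers. That step divides every feature of a library by the same factor, so it cannot show which cells a transcript came from.

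**Figure D3:**
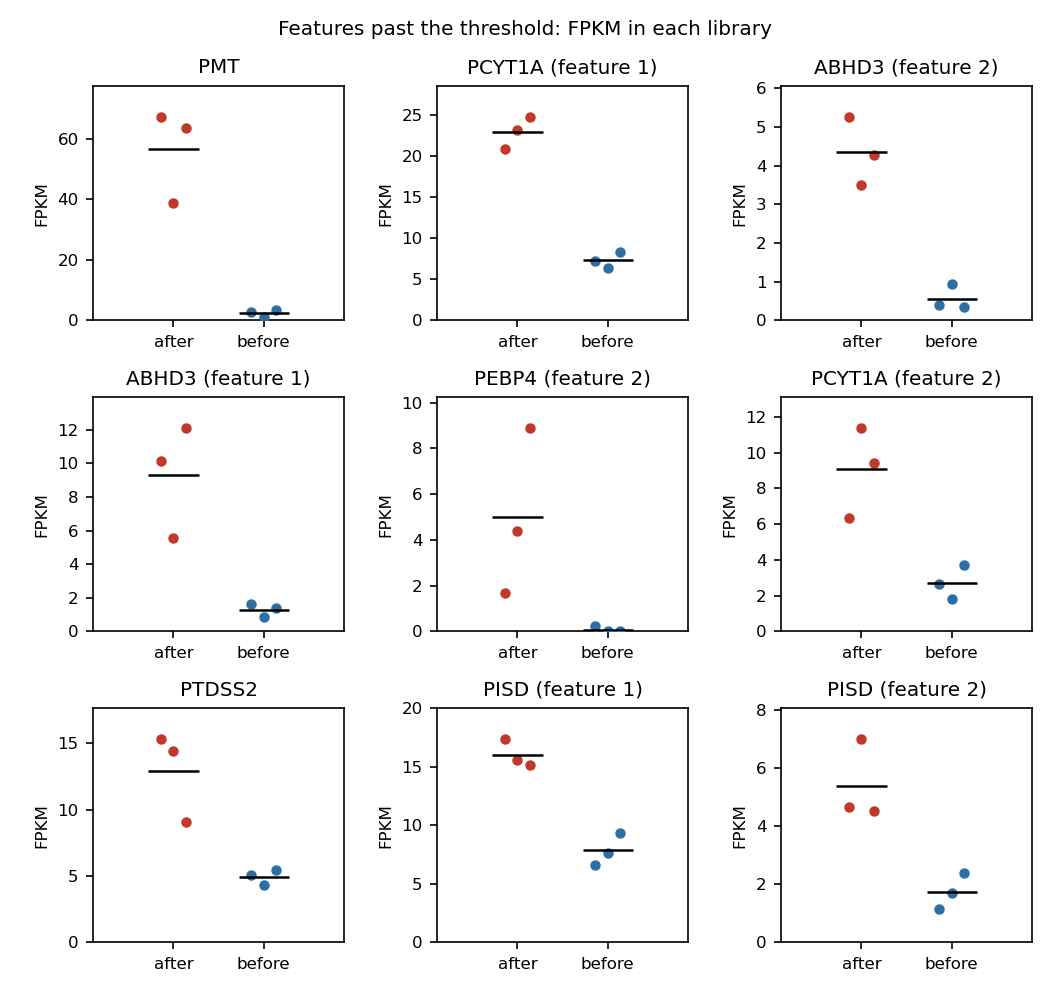
FPKM of the 9 features past the threshold in each library, after on the left and before on the right, with a bar at the mean of 3 and a linear axis from 0 in each panel. No panel has an after library at or below a before library, which for PEBP4 feature 2 and ABHD3 feature 2 followed from the detection floor. PEBP4 feature 2 shows the widest relative spread among its after libraries.

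Phospholipases cut acyl chains or head groups from phospholipids, and 2 of the 27 phospholipase features passed the threshold, both of ABHD3. That is 7.41%, near the 8.64% of all features tested, and against 9.69% of the described features. ABHD3 is a phospholipase that in mice acts on phosphatidylcholines with medium-length acyl chains. One feature had 10.17, 5.58 and 12.13 FPKM after and 1.61, 0.85 and 1.42 FPKM before. The other had 5.27, 3.51 and 4.28 FPKM after and 0.39, 0.93 and 0.35 FPKM before. The second was under 1 FPKM in every before library, so it met the floor through the after libraries alone. Neither overlapped between the stages, with log2 fold changes of 2.12 ± 0.329 (SE; limma adjusted p = 0.0170) and 1.79 ± 0.274 (adjusted p = 0.0167). The first lost its call without after replicate 3 (0.0664), before replicate 1 (0.0549) or before replicate 2 (0.0541), and the second without after replicate 2 (0.0540), after replicate 3 (0.0665) or before replicate 1 (0.0639). Summed over both features, ABHD3 was at 13.6 ± 3.98 FPKM after and 1.85 ± 0.130 FPKM before (SD, n = 3 each), a log2 fold change of 2.32 (adjusted p = 0.00872). This sum takes in the feature that met the floor through the after libraries alone. It therefore adds no support to the call of the first feature.

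The most abundant member by far was a feature described only as phospholipase A2, with no group named. That name alone matched it to PLA2G1B, the secreted digestive enzyme of the pancreas. It had 4083.21, 3045.48 and 3193.33 FPKM after and 7075.76, 6239.16 and 4616.18 FPKM before. Every after library was below every before library, but the log2 fold change of -0.79 ± 0.200 (SE) did not pass (limma adjusted p = 0.0591). It passed with a detection floor of 5 FPKM (adjusted p = 0.0344) and without before replicate 3 (0.0459). Against 1000 FPKM of the other pancreas markers it stood at 11.3, 8.43 and 6.85 FPKM after and 16.5, 12.6 and 14.9 FPKM before, still without overlap. Of the 14 pancreas markers tested, colipase passed and was lower (log2 fold change -0.74, limma adjusted p = 0.0493). The other 13, with this phospholipase A2 feature counted among them, did not pass. The part of pancreas RNA in the level of this feature was not tested.

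**Figure D4:**
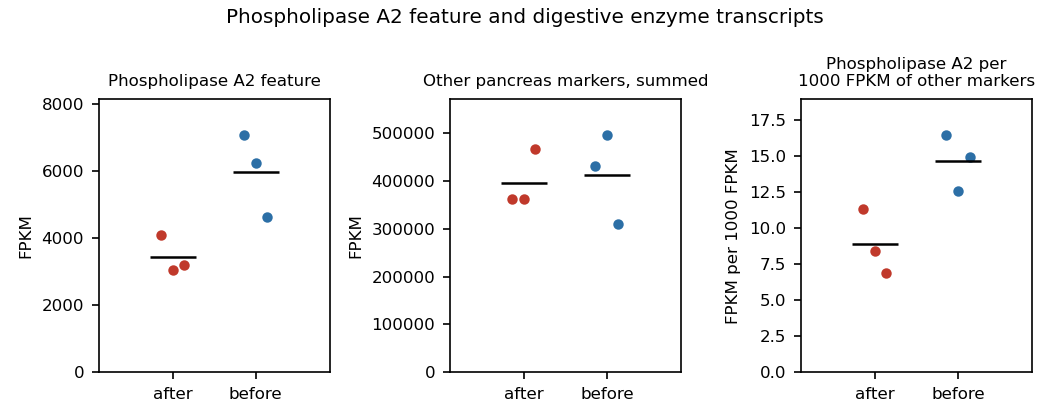
FPKM of the phospholipase A2 feature, summed FPKM of the other pancreas markers, and the first per 1000 FPKM of the second, in each library, after left and before right with a bar at the mean of 3. The summed markers overlap between the stages, while the phospholipase A2 feature and its ratio to them do not.

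This single feature set the direction of the summed level. Over all 89 members FPKM summed to 4557 ± 522 after and 6826 ± 1260 before (SD, n = 3 each). Without it the other 88 summed to 1116 ± 38.9 FPKM after and 849 ± 47.7 FPKM before.

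The remaining phospholipases of types A and B gave values on both sides of 0. PLA2G12B, a secreted phospholipase A2-like protein of the liver that in mice is needed for lipoprotein secretion, had 2 features that lay higher in every after library. The first had 13.13, 15.01 and 12.62 FPKM after and 10.12, 6.37 and 5.71 FPKM before, a log2 fold change of 0.83 (limma adjusted p = 0.0928). The second had 6.17, 8.76 and 7.18 FPKM after and 3.92, 4.02 and 3.68 FPKM before (0.77, adjusted p = 0.0777). LYPLA1, a thioesterase that also cleaves lysophospholipids, averaged 8.07 ± 1.33 FPKM after and 4.59 ± 0.571 FPKM before (SD, n = 3 each; adjusted p = 0.102). PLA2G15, the lysosomal phospholipase A2, overlapped between the stages (log2 fold change -0.13, adjusted p = 0.778). The calcium-independent PNPLA8, which met the floor through the before libraries alone, was lower in every after library, at 0.87, 0.62 and 0.25 FPKM, against 1.2, 1.55 and 1.60 FPKM before (adjusted p = 0.181).

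Of the 10 phospholipase C and D features 0 passed, and their median log2 fold change was -0.22. At an unadjusted p under 0.05 in limma 1 was higher and 2 lower, against 10788 of 40548 features tested in either direction. PLD1, which releases choline to leave phosphatidic acid, averaged 3.01 ± 0.863 FPKM after and 4.69 ± 0.770 FPKM before (SD, n = 3 each; limma adjusted p = 0.260). PLCG1, the receptor-coupled phospholipase C that cleaves phosphatidylinositol bisphosphate, averaged 3.15 ± 0.250 FPKM after and 4.19 ± 1.35 FPKM before (adjusted p = 0.566). GPLD1, a serum enzyme made by the liver that releases proteins from glycosylphosphatidylinositol (GPI) anchors, had 4 features with signs on both sides. The most abundant averaged 21.1 ± 6.57 FPKM after and 14.9 ± 2.49 FPKM before and overlapped (log2 fold change 0.44, adjusted p = 0.393). The next averaged 21.5 ± 5.12 FPKM after and 12.6 ± 1.96 FPKM before, without overlap (0.72, adjusted p = 0.116). The other 2 had negative signs. The more abundant of these had 2.50, 0 and 0 FPKM after and 4.95, 10.38 and 2.08 FPKM before, so that after replicate 1 overlapped the before range (-1.97, adjusted p = 0.116). Summed over the 4, GPLD1 was at 44.5 ± 2.23 FPKM after and 35.1 ± 5.67 FPKM before, without overlap (adjusted p = 0.295).

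A group of 12 features carried 1 protein name, phospholipase A2 inhibitor subunit gamma B-like. Proteins of this family are known from snake serum, where they bind venom phospholipases. The stages overlapped in all 12, of which 0 passed and 2 were higher at an unadjusted p under 0.05 in limma, with log2 fold changes of -1.36 to 1.77. Summed, they were at 86.1 ± 16.2 FPKM after and 73.7 ± 4.59 FPKM before (SD, n = 3 each; limma adjusted p = 0.548). Reads of such similar features can be split between them, so the level of any 1 is uncertain.

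Acyl chain transfer gave 0 calls among 4 features, and 0 at an unadjusted p under 0.05 in limma. LPCAT3, which puts polyunsaturated chains into phosphatidylcholine, had a feature at 60.53, 59.38 and 44.15 FPKM after and 23.45, 28.93 and 55.68 FPKM before, where before replicate 3 lay within the range of the after libraries (log2 fold change 0.67, limma adjusted p = 0.263). Its other feature ranged more widely within each stage, at 7.23, 31.30 and 52.09 FPKM after and 27.87, 44.51 and 11.19 FPKM before. The sum of both averaged 84.9 ± 15.1 FPKM after and 63.9 ± 11.4 FPKM before (SD, n = 3 each; adjusted p = 0.296). LPCAT1 was near the floor and overlapped (0.09, adjusted p = 0.858).

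Breakdown and transport of head groups gave 0 calls among 10 features. At an unadjusted p under 0.05 in limma 1 was higher and 3 lower, against 10788 of 40548 features tested in either direction. ETNPPL, which breaks down phosphoethanolamine, the substrate of PMT, had negative log2 fold changes in its 3 features. The most abundant had 79.68, 48.82 and 44.88 FPKM after and 118.84, 73.43 and 94.18 FPKM before, overlapping at 1 library of each stage (log2 fold change -0.73, limma adjusted p = 0.159). The second had 3.95, 3.61 and 2.69 FPKM after and 12.04, 6.45 and 8.49 FPKM before, without overlap and just short of the threshold (-1.15, adjusted p = 0.0533). This feature passed under 4 of the alternative settings. NAAA, a lysosomal amidase that frees ethanolamine from N-acylethanolamines, had 227.98, 284.86 and 254.00 FPKM after and 198.01, 163.91 and 155.69 FPKM before, without overlap (0.57, adjusted p = 0.0834). GPCPD1, which hydrolyses glycerophosphocholine, overlapped between the stages (0.25, adjusted p = 0.565).

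Among GPI ethanolamine transferases and phosphatidylethanolamine-binding proteins, the call came from a feature of PEBP4 at low level that met the floor through the after libraries alone. It had 1.68, 4.41 and 8.91 FPKM after and 0.23, 0 and 0 FPKM before (log2 fold change 2.29 ± 0.482, SE; limma adjusted p = 0.0363). It kept the call only without after replicate 1. The more abundant PEBP4 feature had the opposite sign, with 5.74, 6.04 and 6.09 FPKM after and 7.87, 10.45 and 11.01 FPKM before (-0.62, adjusted p = 0.121). Summed over both, PEBP4 had a log2 fold change of 0.10 (adjusted p = 0.858), so the gene as a whole was not called. PEBP1, an inhibitor of the kinase Raf, had 115.85 to 132.40 FPKM after and 88.05 to 108.78 FPKM before (adjusted p = 0.192).

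No sphingolipid member passed the test. Of 17 features of 13 genes, every after library was above every before library in 5 and below in 3, and the median log2 fold change was 0.27. That left 47.1% with no overlap, against 32.5% of all features tested and 38.9% of the described features. The 5 above include the less abundant CERS2 feature, which met the floor through the after libraries alone and so could not overlap. At an unadjusted p under 0.05 in limma 4 were higher and 1 lower, against 10788 of 40548 features tested in either direction. SGPL1 and SGPP1 had the smallest adjusted p among sphingolipid members. SGPL1, the lyase that irreversibly cleaves sphingosine-1-phosphate, had 3.22, 2.72 and 3.36 FPKM after and 1.49, 1.03 and 1.22 FPKM before (log2 fold change 0.87, limma adjusted p = 0.0674). SGPP1, the phosphatase that returns it to sphingosine, had 1.82, 3.05 and 2.89 FPKM after and 0.51, 1.01 and 0.90 FPKM before (0.98, adjusted p = 0.0741). Both lay higher in all 3 after libraries. With quantile normalization the adjusted p was 0.0409 for SGPL1 and 0.0491 for SGPP1, and with median-of-ratios scaling it was 0.0489 for SGPL1. Under every other alternative neither passed, at adjusted p of up to 0.182 for SGPL1 and 0.201 for SGPP1.

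The enzymes that cleave sphingomyelin did not share a direction. SMPD3, a neutral sphingomyelinase, had 3.77, 3.49 and 3.41 FPKM after and 5.49, 5.94 and 5.54 FPKM before (log2 fold change -0.55, limma adjusted p = 0.142). SMPD1, the acid sphingomyelinase of lysosomes, had 4.76, 2.50 and 4.37 FPKM after and 8.60, 4.90 and 5.74 FPKM before (-0.61, adjusted p = 0.267). Both lay lower in every after library, while the 3 features of SMPD4 had both signs. Summed over the 3, SMPD4 was at 4.42 ± 0.0321 FPKM after and 2.79 ± 0.0985 FPKM before (SD, n = 3 each). The sum was higher in every after library without passing (log2 fold change 0.52, limma adjusted p = 0.168).

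Ceramide synthesis and use overlapped between the stages in its main features. CERS2, which makes ceramides with very long acyl chains, averaged 9.71 ± 1.94 FPKM after and 7.26 ± 1.16 FPKM before (SD, n = 3 each; limma adjusted p = 0.377). The acid ceramidase ASAH1 averaged 33.2 ± 7.26 FPKM after and 30.0 ± 1.47 FPKM before (adjusted p = 0.767). Glucosylceramide synthase UGCG (log2 fold change 0.41, adjusted p = 0.513) and sphingomyelin synthase SGMS1 (-0.01, adjusted p = 0.992) also overlapped. Features of the kinases that make sphingosine-1-phosphate, and of the desaturase that makes ceramide, were below the detection floor.

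Other genes of these pathways, which the word search does not take, were read from a list of 69 genes, of which 60 matched a feature and 47 were measured. In the same limma fit, by the most abundant feature of each gene, 3 were higher and 3 lower, 12.8% in all. The share was 8.64% over all features tested and 9.69% over those with a description. Those shares count every feature of a gene, so they are not of the same kind. The median log2 fold change of the 47 was -0.02. GPAT4, which starts glycerolipid synthesis by acylating glycerol-3-phosphate, was at 21.9 ± 1.48 FPKM after and 6.83 ± 1.64 FPKM before (SD, n = 3 each; log2 fold change 1.57, adjusted p = 0.0132). SPTSSA, a small subunit of the serine palmitoyltransferase that starts sphingolipid synthesis, was at 53.2 ± 1.86 FPKM after and 27.7 ± 1.77 FPKM before (0.92, adjusted p = 0.0213). PITPNA, a phosphatidylinositol transfer protein, was at 4.26 ± 0.451 FPKM after and 1.17 ± 0.233 FPKM before (1.28, adjusted p = 0.0246).

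The 3 lower genes included 2 of the 7 for choline oxidation and methyl supply. BHMT, which uses betaine from choline to methylate homocysteine, was at 1621 ± 426 FPKM after and 5211 ± 821 FPKM before (SD, n = 3 each; log2 fold change -1.71, limma adjusted p = 0.0130). GNMT, a glycine methyltransferase that consumes S-adenosylmethionine, was at 285 ± 41.5 FPKM after and 575 ± 79.3 FPKM before (-1.01, adjusted p = 0.0220). PIK3C3, the kinase that makes phosphatidylinositol 3-phosphate, was at 3.76 ± 0.399 FPKM after and 9.88 ± 2.44 FPKM before (-1.17, adjusted p = 0.0348). Of the other 5 choline and methyl genes 4 had negative log2 fold changes in their most abundant feature. These 4 overlapped between the stages, at limma adjusted p of 0.380 to 0.646. A less abundant SARDH feature was positive in every fit with 1 library left out, and a less abundant ALDH7A1 feature took both signs. AHCY was higher in every after library without passing. BHMT lost its call without before replicate 1 (adjusted p = 0.0530), and the other 5 genes lost theirs without at least 3 of the 6 libraries in turn, PITPNA and PIK3C3 without any 1.

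Features given the same gene symbol did not always share a direction. Of 19 genes with more than 1 feature, 12 had all features of 1 sign and 7 had both signs. With FPKM summed over the features of each gene, 5 of 55 genes were higher: PMT, ABHD3, PCYT1A, PTDSS2 and PISD. In that fit 1878 of all 40501 entries were higher, where features outside the members and the listed pathway genes stayed unsummed. The ABHD3 sum includes a feature that met the floor through the after libraries alone. By mean level over the 6 libraries, there were 0 calls among the 28 members under 2 FPKM, 6 among the 43 at 2 to 10 FPKM, 3 among the 15 at 10 to 100 FPKM and 0 among the 3 at 100 FPKM or more. Shares of all features in these bands were not computed. With a floor of 5 FPKM 1706 of 12750 features were higher and 1160 lower, against 1882 and 1620 of 40548 with the floor used. The fit with the higher floor was adjusted over its own 12750 features, so these counts cannot isolate the effect of level. With 1 library left out, the 9 calls numbered 6 when after replicate 1 was dropped, 2 when after replicate 2 was, and 1, PMT, when after replicate 3 was. Dropping before replicates 1, 2 and 3 in turn kept 2, 3 and 5 of them. Over all features the calls also fell below 1882 higher and 1620 lower, whichever library was dropped. They were 950 higher and 917 lower without after replicate 1, and 418 and 346 without after replicate 2. A call lost by a member when 1 library is left out is to be read beside this general fall, whose cause was not tested.

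Of the 136 matched features under the detection floor 2 were at 0 in every library, and 49 reached 1 FPKM in 1 or 2 libraries. The highest value among them was 13.57 FPKM for a phospholipase D2 feature in after replicate 1, listed at 0 in the other 5 libraries. Just inside the floor, the library ranked 3 from the top stood at 1.03 FPKM for features of PLB1 and PIGG and at 1.10 FPKM for PLD2. Just outside it stood at 0.99 FPKM for a sodium-dependent lysophosphatidylcholine symporter, a calcium-independent phospholipase A2 and a cytosolic phospholipase A2.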

How the data were processed

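Per the labels' protocols, poly-A RNA was taken from Trizol extracts, primed with random hexamers and sequenced as paired-end reads. The authors deposited 1 matrix of FPKM values with a protein description per transcript cluster, per the file headers. The assembler, aligner and FPKM program and the read totals are not given in the sources used. The absolute depth is thus unknown, and precision is poorest at low FPKM. The FPKM values are not counts. Features with 1 FPKM or more in 3 or more libraries (40548) entered a fit of log2(FPKM + 1) by lmFit and eBayes (trend on) of limma 3.58.1 under R 4.3.3, two-sided and without covariates. P-values were adjusted by Benjamini-Hochberg over all of them, with a threshold of 0.05. A fold change on this scale understates the change of low features. Gene symbols were given to protein names by hand, and other tables were made in Python 3.11.15.

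Members, roles and gene lists were chosen with earlier results of these data known. Text values were given for every member past the threshold and for 25 of 42 genes listed by name that had a member; others are examples chosen after their values were seen. Same-numbered libraries did not deviate together, and the main fit did not pair them. With 3 libraries per stage this cannot settle whether the numbers mark pairs. Alternatives covered the pseudocount, the floor, scaling, the trend, a replicate block, sums per gene and each library left out. No libraries held identical values. No sequences are shown, as none were used here.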

Additional observations from a re-analysis of the deposited data

How the results depend on the processing

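The number of members called higher (9) was 6 to 11 under the other settings run, except 4 with no floor on low values, 5 of 55 with FPKM summed per gene, 1 to 6 with 1 library left out, and 1 with the replicate block given below. The number called lower (0; limma, 10 at an unadjusted p under 0.05) was 2 with a floor of 5 FPKM, 1 each with median-of-ratios scaling, quantile normalization and rescaling without digestive markers, and 0 to 2 with 1 library left out. The other pathway genes called higher (3) numbered 1 with no floor, 6 with median-of-ratios scaling, 5 with quantile normalization and 0 to 3 with 1 library left out, and those called lower (3) numbered 1, 5, 5 and 0 to 2 under the same settings. With the replicate number as a block, 1 member was called higher, PMT, and 0 of the other genes either way, against 194 higher and 145 lower among all features. Deviations of the same-numbered libraries from their stage means correlated at -0.005, -0.039 and -0.088. With 3 libraries per stage these values cannot settle whether the numbers mark pairs. Over all features the calls were 1882 higher and 1620 lower as reported and 634 and 433 with no floor. The cause of these shifts was not tested. With 1 library left out in turn, 14 of the 89 members took both signs, and 0 of these 14 were past the threshold. Among the genes named by rule, the sum of both CHPT1 features had a log2 fold change of 0.24, against -0.16 for feature 1 alone. SGMS1 was 0.0234 with median-of-ratios scaling, 0.0525 with quantile normalization and 0.0306 when rescaled without digestive markers. With 1 library left out SGMS1 ran from -0.18 to 0.26 and LPCAT1 from -0.0492 to 0.164. ASAH1 was -0.0029 with quantile normalization. Unknown depth limits what can be said of features near 1 FPKM, and 0 of the 28 members with a mean under 2 FPKM passed.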
